A study of Mus musculus with 25 samples.

Results

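The interaction of diethylnitrosamine (DEN) with diet was read from 19 of the 25 RNA sequencing libraries of this series. For each gene it is the DEN effect on the western diet (DEN-PT-WD minus nonDEN-L-WD) minus the DEN effect on the control diet (DEN-L-CD minus nonDEN-L-CD). The groups were liver from untreated mice on the control diet (nonDEN-L-CD, n = 3) or the western-style diet (nonDEN-L-WD, n = 4), liver from DEN-injected mice on the control diet (DEN-L-CD, n = 4), and peritumoral liver from DEN-injected mice on the western diet (DEN-PT-WD, n = 8). All were male C57BL/6J mice, an inbred strain, fed their diet from weaning. DEN was given as 1 intraperitoneal dose of 25 mg/kg at 2 weeks of age, and livers were taken at 36 weeks, or at 36 to 39 weeks by another statement of the study that does not assign ages to samples. The tumor libraries of the DEN-injected mice on the western diet were left out.

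DEN is a carcinogen that cytochromes P450 of the hepatocyte turn into a DNA alkylating agent, and a western-style diet loads the liver with lipid. When both exposures multiply a transcript independently, their log2 effects add and the interaction is 0. A positive value means that the combined group held more transcript than the product of both single effects predicts (above additivity), and a negative value that it held less (below additivity). Liver is known for its acute phase and stress programs, bile acid and lipid metabolism, xenobiotic enzymes and the immune cells it can recruit, and the genes were grouped by these.

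Several features of the groups bear on every value below. DEN-PT-WD is tissue beside a tumor and the other groups are liver. The tissue sampled therefore cannot be told apart from DEN on the western diet, from the diet after DEN or from the interaction. Tumors on the control diet were too small to dissect, so DEN-L-CD liver may hold them. In bulk tissue, fewer cells of a type and less RNA per cell cannot be told apart. The labels number the replicates but name no litter, cage or day, so that p-values measure the spread between these samples.

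Libraries held 23225238 to 38074411 expected counts, and the 16 hepatocyte identity genes, *Alb* and *Ttr* among them, summed to 1132279 to 2589363 normalized counts in every library. The nonDEN-L-CD group, which enters the interaction with a positive sign, was uneven. Its replicates 2 and 3 summed to 1637671 and 1720466 normalized counts over 23 acute phase genes, its replicate 1 to 798877, and the other 16 libraries to 407512 to 923528. Results were therefore also computed without replicates 2 and 3, which leaves 1 library in that arm. In that fit the lone library is assumed to vary like the other groups. Exocrine pancreas transcripts ranged from 187 to 145761 normalized counts and skeletal muscle transcripts from 10.2 to 2553, with overlap between all 4 groups. No pancreas or muscle marker passed the interaction test. Without the 3 libraries highest in pancreas transcripts, a choice made after seeing the data, 194 of the 266 genes called above additivity and 149 of the 224 called below stayed called in the same direction. The part of muscle transcripts was not tested.

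Of 15180 tested genes, 490 departed from additivity (edgeR quasi-likelihood test, adjusted p of at most 0.05 and an absolute log2 interaction of at least 1), which is 3.23% of all tested. Above additivity lay 266 genes (1.75%), and below it 224 (1.48%). Without the minimum fold, 815 genes lay above and 779 below. Over all tested genes the median log2 interaction was 0.02. On the log2(TPM + 1) scale the median of all genes shifted to 0.15, and the split changed to 205 above and 54 below, so that 79.2% of calls lay above in place of 54.3%. Each of the 85 genes named here kept its sign on that scale, also relative to the shift. Of the 224 genes below the log-additive expectation, 222 also fell short of the linear one.

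In most departures the untreated mice on the control diet held the extreme mean. Of the 266 genes above additivity, 209 (78.6%) had their highest mean in nonDEN-L-CD, against 35.3% of all tested genes. Of the 224 genes below it, 201 (89.7%) had their lowest mean there, against 38.9% of all tested genes. The sign of an interaction itself favors nonDEN-L-CD or DEN-PT-WD as the extreme group, so these shares over all tested genes are no like reference. Of the 266 genes, 0 were highest in nonDEN-L-WD and 0 in DEN-L-CD, and of the 224 genes 0 were lowest in either. Among the genes above additivity, 153 were lower with DEN on the control diet, 154 were lower with the western diet without DEN, and 126 were lower with both. For the background, those comparisons called 1.96% and 2.19% of all tested genes lower and 3.1% and 3.51% higher. Among the genes below additivity, 149 were higher with DEN on the control diet, 159 were higher with the western diet alone, and 131 were higher with both. These single effects share their samples with the interaction, and the counts describe its shape.

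Fewer of these genes passed the threshold for a second exposure on top of the first than for a single exposure. Each count below still exceeded its share over all tested genes, which choosing genes by the interaction favors. Of the 266 genes above additivity, 34 were higher with DEN on the western diet (2.59% of all tested genes were) and 25 were higher with the western diet after DEN (1.66%). Of the 224 genes below additivity, 12 were lower with DEN on the western diet (0.408%) and 18 were lower with the western diet after DEN (0.448%). The median effects of the genes above additivity were -1.13 for DEN on the control diet and 0.42 for DEN on the western diet (log2). For the genes below additivity they were 1.27 and -0.23. All 3 nonDEN-L-CD libraries exceeded the other 16 in 92 of the 266 genes (8.3% of all tested genes) and lay under them in 125 of the 224 (7.05%). All 8 DEN-PT-WD libraries exceeded the other 11 in 3 of the 266 genes (0.87%) and lay under them in 2 of the 224 (0.553%).

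**Figure D1:**
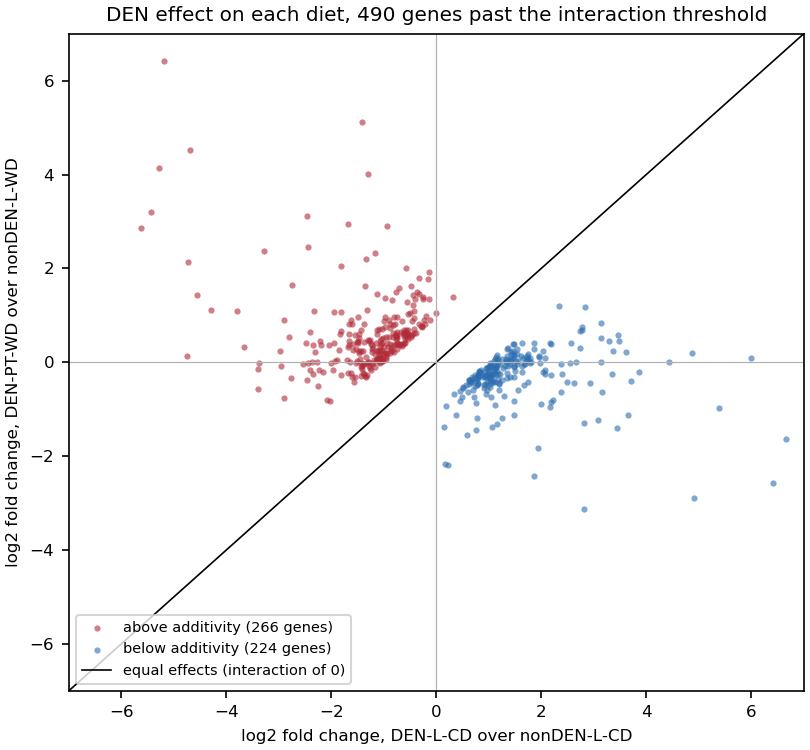
DEN effect on the western diet against DEN effect on the control diet, both as log2 fold changes, with 1 point for each of the 490 called genes (266 above and 224 below additivity), the diagonal marking additivity and 2 genes outside the plotted range of 7 in either direction. Genes above additivity lie mostly at negative values of the horizontal axis (median -1.13) and closer to 0 on the vertical axis (median 0.42), and genes below it at positive horizontal values (median 1.27, vertical median -0.23).

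When nonDEN-L-CD replicates 2 and 3 were left out, 10 genes remained called above additivity and 5 below. Of these 15, 14 were also called with all 19 libraries: *Atxn1*, *Hspb1*, *Nedd4l*, *Csf2rb*, *Tacc2*, *Icam1*, *Prox1*, *Hspa4l*, *Crybg3* and *Sept11* above, and *Gm20319*, *Hsd3b2*, *Syt1* and *Apol7a* below. The remaining gene, *Gm6710*, had a log2 interaction of -2.95 without the pair and of -0.52 with all libraries. Directions changed less than calls. Of the 266 genes, 263 kept a positive sign and 163 a value of at least 1, and their median moved from 1.53 to 1.15. All 224 genes below additivity stayed negative, 167 at -1 or lower, with a median of -1.46 before and -1.33 after. *Atxn1*, *Hspa4l*, *Crybg3* and *Gm6710* were named after their values were seen.

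Acute phase proteins, which hepatocytes secrete during inflammation, lay above additivity as a list. All 23 measured genes had a positive interaction, 10 passed the test, none passed below, and the median was 1.29. Without nonDEN-L-CD replicates 2 and 3 the median was 0.40 and no member passed. Serum amyloid A2 (*Saa2*, chr7:46751790-46754313), an apolipoprotein of inflammation, held normalized counts of 947, 35791 and 46989 in nonDEN-L-CD, 3495, 594, 463 and 1143 in DEN-L-CD, 527, 672, 925 and 1538 in nonDEN-L-WD, and 799 to 6589 (median 1253) in DEN-PT-WD. Replicates 2 and 3 of nonDEN-L-CD stood far above every other library, and replicate 1 lay within the range of the other groups. Its log2 interaction of 5.4 (SE 1.28, edgeR adjusted p = 0.0133) became 0.52 without that pair. *Saa1* and the siderophore-binding protein *Lcn2* had log2 interactions of 4.88 (SE 1.26, edgeR adjusted p = 0.0208) and 4.89 (SE 1.29, edgeR adjusted p = 0.023), which became 1.49 and 0.72. *Lcn2* reached 5466 normalized counts in a DEN-PT-WD library, so its groups overlapped.

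*Steap4*, a metalloreductase of inflamed liver, was among the steadier members. Its normalized counts were 12859, 39875 and 38326 in nonDEN-L-CD, 9351, 5014, 5108 and 6379 in DEN-L-CD, 6536, 4098, 5568 and 8257 in nonDEN-L-WD, and 3863 to 7392 (median 5092) in DEN-PT-WD. All 3 nonDEN-L-CD libraries exceeded every other library, replicate 1 by less than the others. The log2 interaction was 2.07 (SE 0.42, edgeR adjusted p = 0.0064), and 0.83 without replicates 2 and 3. DEN on the control diet and the western diet alone each lowered *Steap4*, by log2 changes of -2.23 (SE 0.33, edgeR adjusted p = 1.9e-04) and -2.31 (SE 0.33, edgeR adjusted p = 1.4e-04). The value for DEN on the western diet was -0.16 (SE 0.26, edgeR adjusted p = 0.711). The lipopolysaccharide-binding protein *Lbp*, haptoglobin (*Hp*) and the inhibitor heavy chain *Itih4* had log2 interactions of 1.55, 1.42 and 1.29, with 1.12, 0.69 and 0.58 without the pair. Orosomucoid 2 (*Orm2*), the antiprotease *Serpina3n* and *Saa3* gave 3.43, 2.28 and 1.78, and 0.40, 0.36 and 0.40 without it.

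Many acute phase genes are induced through STAT3, whose palindromic motif is TTCNNNGAA. Among 19 acute phase genes with a RefSeq promoter (250 bases before to 50 after the start, GRCm38.p6), 6 held the motif (31.6%), *Fga*, *Fgb*, *Apcs*, *Itih4*, *Steap4* and *Hamp*, while 8.47% of all 27025 promoters did. The share was no lower in bile acid genes, most of which had negative interactions (6 of 17, 35.3%). The motif reads alike on both strands. *Steap4* and *Itih4*, both called, are shown because they carry it, with the motif in capitals.
Steap4 promoter, chr5:7960222-7960471, + strand: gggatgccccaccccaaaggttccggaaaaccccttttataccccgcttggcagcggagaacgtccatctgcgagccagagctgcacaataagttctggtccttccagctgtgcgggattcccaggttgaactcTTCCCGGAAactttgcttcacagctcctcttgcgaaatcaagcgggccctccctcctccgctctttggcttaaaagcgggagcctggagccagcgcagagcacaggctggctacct
Itih4 promoter, chr14:30886226-30886475, + strand: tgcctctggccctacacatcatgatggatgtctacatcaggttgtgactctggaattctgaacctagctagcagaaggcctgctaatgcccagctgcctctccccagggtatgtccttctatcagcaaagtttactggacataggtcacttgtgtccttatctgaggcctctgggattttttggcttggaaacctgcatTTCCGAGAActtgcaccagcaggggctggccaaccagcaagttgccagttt

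Metallothioneins bind zinc and copper, and their genes respond to metals, glucocorticoids and inflammatory cytokines. Metallothionein 2 (*Mt2*, chr8:94172664-94173568) held normalized counts of 966, 19001 and 19333 in nonDEN-L-CD, 637, 118, 102 and 201 in DEN-L-CD, 228, 53.4, 180 and 306 in nonDEN-L-WD, and 244 to 5516 (median 539) in DEN-PT-WD. Replicates 2 and 3 of nonDEN-L-CD lay above every other library, while DEN-PT-WD reached well above replicate 1. The log2 interaction was 8.49 (SE 1.60, edgeR adjusted p = 0.00442) and 4.73 without the pair. Both single exposures lowered *Mt2*, with log2 changes of -5.62 (SE 1.23, edgeR adjusted p = 0.00334) for DEN and -6.10 (SE 1.26, edgeR adjusted p = 0.00215) for the diet. The log-additive expectation for the combined group was therefore 3.87 normalized counts, where the mean was 1395 ± 1854 (SD, n = 8). With replicate 1 alone in the nonDEN-L-CD arm, that expectation was 52.5.

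*Mt1*, the neighboring gene, followed with 1658, 21557 and 21842 in nonDEN-L-CD, 1541, 284, 240 and 488 in DEN-L-CD, 574, 136, 416 and 1631 in nonDEN-L-WD, and 492 to 6676 (median 902) in DEN-PT-WD. Replicates 2 and 3 of nonDEN-L-CD again lay above every other library, and DEN-PT-WD reached above replicate 1. Its log2 interaction was 5.98 (SE 1.37, edgeR adjusted p = 0.0115) and 2.80 without the pair. Of the 8 metallothionein and zinc transporter genes, these 2 passed the test, 7 had a positive value, and the median was 1.02 (0.85 without the pair). Metal response elements have the core TGCNCNC, which is short enough to occur on either strand in 50.4% of all promoters. The *Mt2* promoter is shown because its gene had the largest interaction of the protein-coding genes named here, and it held 5 matches, in capitals, at 223, 178, 128, 113 and 50 bases before the listed start.
Mt2 promoter, chr8:94172368-94172617, + strand: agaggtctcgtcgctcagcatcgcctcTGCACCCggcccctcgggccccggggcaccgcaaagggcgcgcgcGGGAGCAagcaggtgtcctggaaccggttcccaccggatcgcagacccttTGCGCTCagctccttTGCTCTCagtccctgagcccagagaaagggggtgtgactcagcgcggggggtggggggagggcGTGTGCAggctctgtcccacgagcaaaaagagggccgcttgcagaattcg

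Other stress and inflammatory lists held a small number of called members each, where 1.75% of all tested genes lay above additivity. In the chemokine and cytokine list 3 of 23 genes lay above additivity (13 positive values, median 0.23), among immediate early genes 2 of 18 (10 positive, median 0.14), and among p53 targets 1 of 17 (13 positive, median 0.31), with none below. The neutrophil chemokine *Cxcl1* held 922, 4209 and 5081 in nonDEN-L-CD, 1013, 138, 143 and 528 in DEN-L-CD, 164, 76, 157 and 289 in nonDEN-L-WD, and 134 to 589 (median 315) in DEN-PT-WD. Replicates 2 and 3 of nonDEN-L-CD exceeded the rest and replicate 1 lay inside the DEN-L-CD range. This gave a log2 interaction of 3.80 (SE 0.88, edgeR adjusted p = 0.0122) and 1.91 without the pair. The cytokine inhibitor *Socs3*, the immediate early genes *Junb* and *Btg2*, and the cell cycle inhibitor *Cdkn1a*, a p53 and glucocorticoid target, had log2 interactions of 2.48, 1.69, 1.59 and 3.03. Without the pair these were 1.15, 1.02, 1.03 and 0.45. *Retnlg*, a neutrophil marker, gave 3.04 and 1.11. The neutrophil markers summed to 135, 328 and 452 normalized counts in nonDEN-L-CD replicates 1, 2 and 3 and to 97.3 to 305 elsewhere, and the part of neutrophils in these values was not tested.

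Genes of the unfolded protein and integrated stress response lay above additivity in 4 of 23 cases and below in none (median 0.79, and 0.50 without the pair). Asparagine synthetase (*Asns*), a target of the transcription factor ATF4, held 233, 277 and 280 in nonDEN-L-CD, 92.1, 60.7, 134 and 123 in DEN-L-CD, 36.9, 38.9, 10.8 and 60.9 in nonDEN-L-WD, and 46.8 to 282 (median 84.2) in DEN-PT-WD. The 3 nonDEN-L-CD libraries were close together and above all others but DEN-PT-WD replicate 7. The log2 interaction was 2.99 (SE 0.70, edgeR adjusted p = 0.0123) and 2.81 without the pair, and DEN on the western diet raised it by a log2 of 1.62 (SE 0.47, edgeR adjusted p = 0.0283). The serine synthesis enzyme *Psph* gave 1.29 (SE 0.28, edgeR adjusted p = 0.00882), and 0.68 without the pair. *Creld2* and *Sdf2l1*, which act in the endoplasmic reticulum, gave 2.13 and 1.29, and 1.62 and 1.10 without the pair. The glucocorticoid-induced cochaperone *Fkbp5* and the clock genes *Arntl* and *Nfil3* also lay above additivity, at 2.40, 2.35 and 1.40. These were 1.64, 1.70 and 0.92 without the pair. The median was -0.31 over the clock list, with 2 of 19 members above, and 0.13 over the glucocorticoid list, with 2 of 16.

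The small heat shock protein *Hspb1* (chr5:135887919-135889563) departed from additivity without resting on the uneven pair. Its normalized counts were 2301, 2058 and 2502 in nonDEN-L-CD, 413, 327, 555 and 476 in DEN-L-CD, 490, 712, 482 and 427 in nonDEN-L-WD, and 367 to 661 (median 506) in DEN-PT-WD. The 3 nonDEN-L-CD libraries lay far above the other 16, which overlapped each other. The log2 interaction was 2.37 (SE 0.27, edgeR adjusted p = 2.2e-04), and 2.37 (edgeR adjusted p = 0.0109) without replicates 2 and 3. DEN on the control diet and the western diet alone lowered it by log2 changes of -2.37 and -2.11, and the value for DEN on the western diet was 0.00 (SE 0.17, edgeR adjusted p = 0.995). The chaperone *Hsp90aa1* gave 1.14 (SE 0.20, edgeR adjusted p = 0.00296), while the inducible *Hspa1b* lay below additivity at -1.95 (SE 0.47, edgeR adjusted p = 0.0144). Of the 10 heat shock genes, 2 thus lay above and 1 below. Near-identical genes hold 48.8% of the sequence words of *Hspb1*, 47.5% of those of *Hsp90aa1* and 62.3% of those of *Hspa1b*, so these counts are uncertain.

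Several further genes had small errors, and all but *Myd88* of those given here stayed called without the pair. The ubiquitin ligase *Nedd4l* held 1853, 2326 and 2718 in nonDEN-L-CD, 742, 697, 727 and 712 in DEN-L-CD, 605, 647, 653 and 642 in nonDEN-L-WD, and 529 to 1086 (median 767) in DEN-PT-WD. All 3 nonDEN-L-CD libraries exceeded the rest, and the other groups lay close together. On the log2 scale the interaction was 1.99 (SE 0.21, edgeR adjusted p = 1.3e-04) and 1.68 without the pair. The adhesion molecule *Icam1* held 362, 450 and 481 in nonDEN-L-CD, 247, 216, 199 and 201 in DEN-L-CD, 179, 240, 231 and 160 in nonDEN-L-WD, and 280 to 490 (median 364) in DEN-PT-WD. Here DEN-PT-WD overlapped nonDEN-L-CD and lay above both single exposures. The test gave a log2 interaction of 1.87 (SE 0.22, edgeR adjusted p = 2.2e-04) and 1.62 without the pair. DEN on the control diet changed *Icam1* by a log2 of -1.0 (SE 0.17, edgeR adjusted p = 4.7e-04), and the higher level with DEN on the western diet, 0.87 (SE 0.14, edgeR adjusted p = 0.00186), fell short of the minimum fold. *Prox1*, a hepatocyte transcription factor, gave 1.16 (SE 0.20, edgeR adjusted p = 0.00268) and 1.26, *Tacc2* gave 2.44 and 1.32, and *Sept11* gave 1.35 and 1.18. The adaptor *Myd88* gave 1.18 and 0.80, the second under the minimum fold. *Myd88* overlaps *Acaa1a* on the genome and the use of strand is not given, so reads of both genes cannot be told apart. *Nedd4l*, *Icam1*, *Tacc2*, *Sept11*, *Myd88* and *Hspb1* were added by smallest p among those highest in nonDEN-L-CD, a rule set after values were seen.

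**Figure D2:**
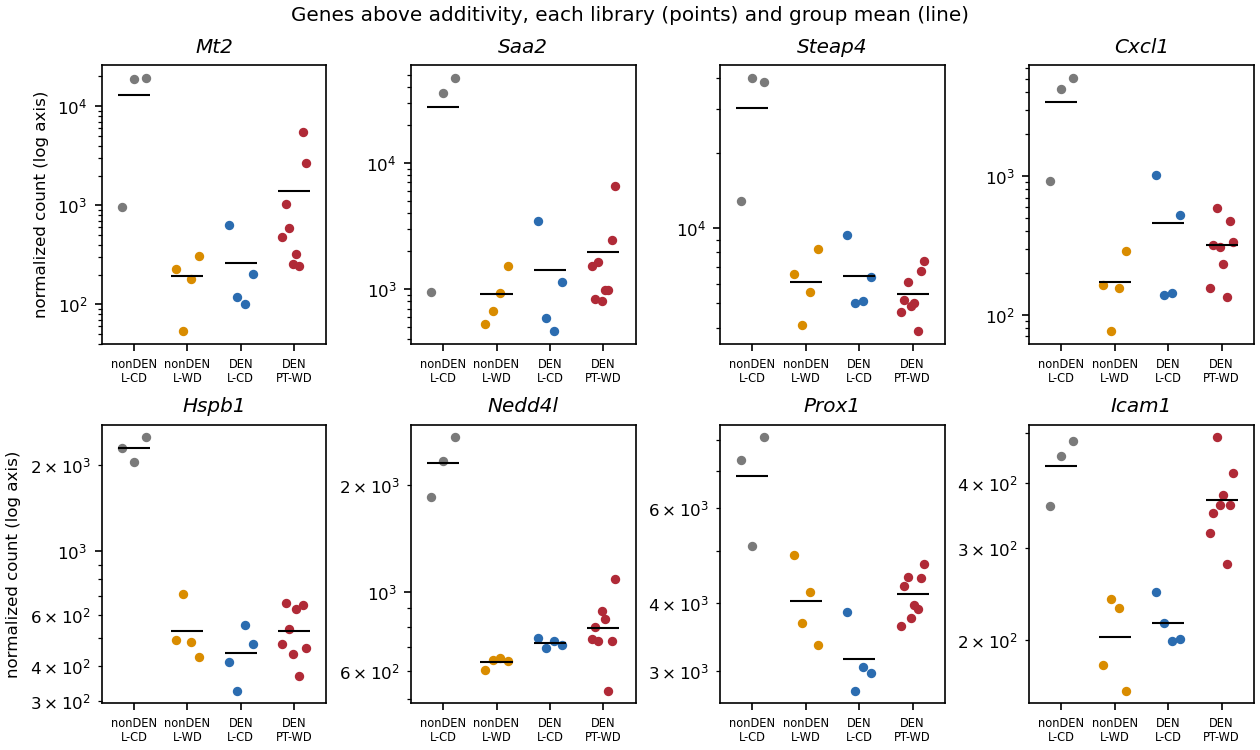
Normalized counts by library (log axis) of 8 genes above additivity in the 4 groups, each point 1 library and each line the group mean. In *Mt2*, *Saa2*, *Steap4* and *Cxcl1* replicates 2 and 3 of nonDEN-L-CD stand above the rest, in *Hspb1*, *Nedd4l* and *Prox1* its 3 libraries all lie above the other 16, and in *Icam1* they overlap DEN-PT-WD only.

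Of 22 bile acid synthesis and transport genes, 4 lay below additivity and 1 above, 19 had negative values, and the median was -0.60 (-0.53 without the pair). *Cyp7a1* (chr4:6265612-6275633), the rate-limiting enzyme of bile acid synthesis, held 917, 303 and 490 in nonDEN-L-CD, 5707, 6884, 9302 and 6122 in DEN-L-CD, 12248, 5311, 8405 and 7212 in nonDEN-L-WD, and 5234 to 17890 (median 9677) in DEN-PT-WD. All 3 nonDEN-L-CD libraries lay far below every other library, and the other 3 groups overlapped. DEN on the control diet raised *Cyp7a1* by a log2 of 3.62 (SE 0.47, edgeR adjusted p = 6.5e-05) and the western diet alone by 3.86 (SE 0.48, edgeR adjusted p = 4.1e-05). The value for DEN on the western diet was 0.22 (SE 0.33, edgeR adjusted p = 0.691). The log-additive expectation was 101879 normalized counts, against a DEN-PT-WD mean of 9634 ± 4256 (SD, n = 8), and 63322 with nonDEN-L-CD replicate 1 alone in its arm. The log2 interaction was -3.40 (SE 0.54, edgeR adjusted p = 0.00175) and -2.72 without the pair.

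The bile acid enzyme *Akr1d1* gave a log2 interaction of -1.27 (SE 0.29, edgeR adjusted p = 0.0115), the uptake transporter *Slco1b2* -1.0 (SE 0.22, edgeR adjusted p = 0.0088) and the sodium-dependent uptake transporter *Slc10a1* -1.03 (SE 0.25, edgeR adjusted p = 0.0157). *Slc10a1* was lowest in DEN-PT-WD, with means of 9849 ± 1950, 13931 ± 1986, 14040 ± 1199 and 9703 ± 2361 normalized counts (SD) in nonDEN-L-CD, nonDEN-L-WD, DEN-L-CD and DEN-PT-WD. The oxysterol hydroxylase *Cyp39a1* went the other way, at 1.16 (SE 0.29, edgeR adjusted p = 0.0179) and 1.38 without the pair. The sterol hydroxylase *Cyp8b1* had a value of -1.17 (edgeR adjusted p = 0.0525) and missed the threshold. The efflux pump *Abcc2* passed the adjusted p but not the minimum fold, at -0.80 (edgeR adjusted p = 0.00685).

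Of 28 xenobiotic cytochromes P450, 4 lay below additivity, none above, and 22 had negative values (median -0.37, and -0.42 without the pair). The P450 genes *Cyp2c40* and *Cyp2c69*, which were not in this list, were called above additivity. *Cyp2a5*, a coumarin hydroxylase, held 4162, 2438 and 3978 in nonDEN-L-CD, 9564, 17533, 23496 and 13533 in DEN-L-CD, 12010, 15452, 20270 and 9003 in nonDEN-L-WD, and 14795 to 25992 (median 16933) in DEN-PT-WD. Every nonDEN-L-CD library lay below every other library, and the other groups overlapped. Its log2 interaction was -1.78 (SE 0.38, edgeR adjusted p = 0.00807) and -1.55 without the pair. *Cyp3a25*, *Cyp1a1* and *Cyp2c39* gave -1.15, -1.40 and -1.59. Pericentral genes, which depend on Wnt signals near the central vein, lay below additivity in 2 of 12 cases, with 11 negative values (median -0.75, and -0.56 without the pair). They were the R-spondin receptor *Lgr5*, at -1.54 (SE 0.30, edgeR adjusted p = 0.00535), and ornithine aminotransferase (*Oat*), at -1.12 (SE 0.27, edgeR adjusted p = 0.0143). *Cyp2e1*, the enzyme known for activating DEN, missed the minimum fold at -0.90 (edgeR adjusted p = 0.0101), with means of 118921, 220104, 160214 and 159211 normalized counts in nonDEN-L-CD, nonDEN-L-WD, DEN-L-CD and DEN-PT-WD.

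Of 18 lipid synthesis genes, 2 lay below additivity and none above, with 14 negative values and a median of -0.71 (-0.62 without the pair). *Srebf1*, the transcription factor that drives fatty acid synthesis, held 1293, 956 and 1006 in nonDEN-L-CD, 3581, 4410, 4768 and 5007 in DEN-L-CD, 6940, 6871, 6455 and 2947 in nonDEN-L-WD, and 4140 to 11120 (median 7018) in DEN-PT-WD. The 3 nonDEN-L-CD libraries were the lowest of all 19, and the other groups overlapped. This gave a log2 interaction of -1.80 (SE 0.40, edgeR adjusted p = 0.01) and -1.55 without the pair. DEN on the control diet raised *Srebf1* by a log2 of 2.03 (SE 0.33, edgeR adjusted p = 4.1e-04) and the diet alone by 2.42 (SE 0.34, edgeR adjusted p = 1.2e-04). The desaturase *Fads2* was called at -1.03. Fatty acid synthase (*Fasn*) and the desaturase *Scd1* had values of -0.95 and -0.74 and missed the threshold (edgeR adjusted p = 0.39 and 0.45).

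Among 20 lipid droplet and fatty acid uptake genes, 3 lay below additivity and none above. *Cidea*, which fuses lipid droplets, held 4.5, 51.1 and 5.55 in nonDEN-L-CD, 165, 323, 188 and 219 in DEN-L-CD, 1081, 999, 1794 and 732 in nonDEN-L-WD, and 16.2 to 725 (median 427) in DEN-PT-WD. The nonDEN-L-CD libraries were low, except that replicate 2 exceeded the lowest DEN-PT-WD library, replicate 7. On the log2 scale the interaction was -4.85 (SE 1.06, edgeR adjusted p = 0.00914) and -7.01 without the pair. The long noncoding RNA *B430212C06Rik*, which overlaps *Cidea*, moved with it, and its nonDEN-L-CD libraries held at most 3 counts, so that its fitted value is no bound. The acyltransferase *Mogat1* and the droplet protein *Fitm1* gave -2.90 and -1.24. The fatty aldehyde dehydrogenase *Aldh3a2*, a PPAR alpha target, gave -1.07, as the sole called member of 25. The peroxisomal transporter *Abcd2*, the 1 called female-biased gene of 14, gave -1.67. On the linear scale its DEN-PT-WD mean exceeded the additive expectation by 72.5 normalized counts, so its direction depends on the scale.

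*Themis*, a T cell signaling gene, was among the largest departures below additivity. It held 9.01, 12.2 and 11.1 in nonDEN-L-CD, 410, 355, 197 and 312 in DEN-L-CD, 616, 635, 761 and 310 in nonDEN-L-WD, and 222 to 1214 (median 649) in DEN-PT-WD. The 3 nonDEN-L-CD libraries lay far under the other 16 libraries. The test gave a log2 interaction of -4.68 (SE 0.70, edgeR adjusted p = 0.00125) and -4.93 without the pair. Of the 17 measured markers, *Themis* and *Cd2* passed the test and the median of the list was -0.05. *Cd2* gave -1.65 (SE 0.50, edgeR adjusted p = 0.0439), with at most 28.7 normalized counts in any library. No other marker of the list passed. Without *Themis* and *Cd2*, the T and NK cell markers summed to 245 to 268 normalized counts in nonDEN-L-CD, 265 to 502 in DEN-L-CD, 216 to 349 in nonDEN-L-WD and 311 to 820 in DEN-PT-WD. The nonDEN-L-CD sums thus overlapped those of both single exposures and lay under all of DEN-PT-WD. The part of T cells in the value of *Themis* was not tested. B and plasma cell markers had 11 of 12 negative values and a median of -1.86 (-1.53 without the pair) with no member called.

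The oxysterol-binding protein *Osbpl3* (chr6:50293330-50456201) held 97.9, 57.8 and 37.8 in nonDEN-L-CD, 510, 858, 731 and 579 in DEN-L-CD, 1228, 1409, 1250 and 794 in nonDEN-L-WD, and 1011 to 1877 (median 1290) in DEN-PT-WD. The nonDEN-L-CD libraries were the lowest, DEN-L-CD lay above them, and both western diet groups lay higher still with a small overlap between nonDEN-L-WD and DEN-L-CD. Its log2 interaction was -3.14 (SE 0.38, edgeR adjusted p = 2.4e-04) and -2.54 without the pair. The synaptotagmin *Syt1*, a calcium sensor of vesicle fusion, held 106, 82.2 and 121 in nonDEN-L-CD, 392, 296, 326 and 335 in DEN-L-CD, 351, 392, 415 and 338 in nonDEN-L-WD, and 310 to 460 (median 391) in DEN-PT-WD. The 3 nonDEN-L-CD libraries lay under all others, which overlapped. This gave a log2 interaction of -1.66 (SE 0.19, edgeR adjusted p = 2.2e-04) and -1.62 (edgeR adjusted p = 0.0109) without the pair. The steroid dehydrogenase *Hsd3b2* gave -2.34 (SE 0.28, edgeR adjusted p = 2.3e-04) and -1.66, *Apol7a* gave -1.79 and -1.62, and the mineralocorticoid receptor *Nr3c2* gave -1.34 and -1.10.

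*Gm20319*, an antisense RNA at *Il1rap*, which encodes the accessory chain of the interleukin 1 receptor, had the smallest adjusted p of the named genes. It held 785, 697 and 697 in nonDEN-L-CD, 1732, 1635, 1411 and 1424 in DEN-L-CD, 1608, 1445, 1588 and 1453 in nonDEN-L-WD, and 1245 to 1555 (median 1315) in DEN-PT-WD. The 3 nonDEN-L-CD libraries lay under every other library, and the spread within groups was small. On the log2 scale the interaction was -1.28 (SE 0.11, edgeR adjusted p = 8.7e-06) and -1.17 without the pair. Its reads and those of *Il1rap* cannot be told apart, since the use of strand is not given. *Gm20319*, *Syt1*, *Apol7a*, *Hsd3b2*, *Nr3c2* and *Osbpl3* were added by smallest p among genes lowest in nonDEN-L-CD. The largest values below additivity also included *Lrtm1* (-4.10), the nuclear receptor *Esrrg* (-3.61), the complement protease *Cfd* (-3.13) and the piRNA trimming enzyme *Pnldc1* (-3.02). The cyclin *Ccne2* gave -1.20, as the sole called member of 35 cell cycle genes. *Cfd* and leptin (*Lep*) are adipocyte genes. Without both, the adipocyte markers summed to 43.3 to 106 normalized counts in nonDEN-L-CD, 152 to 262 in DEN-L-CD, 110 to 203 in nonDEN-L-WD and 66 to 197 in DEN-PT-WD. The nonDEN-L-CD sums thus lay under both single exposures and overlapped DEN-PT-WD. The list median was -3.15 (-2.87 without the pair). The part of adipocytes in these values was not tested.

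**Figure D3:**
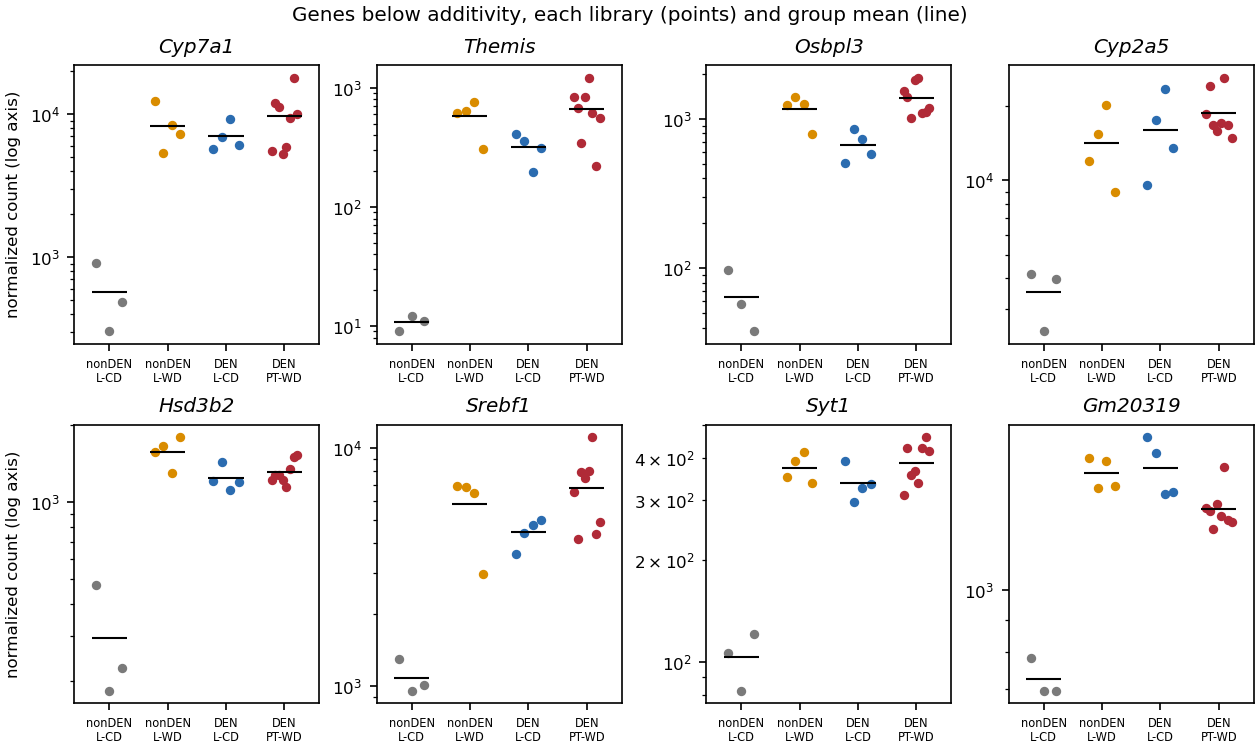
Normalized counts by library (log axis) of 8 genes below additivity in the 4 groups, each point 1 library and each line the group mean. In *Cyp7a1*, *Themis*, *Osbpl3*, *Cyp2a5*, *Hsd3b2*, *Srebf1*, *Syt1* and *Gm20319* the 3 nonDEN-L-CD libraries lie under the other 16.

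A smaller class was highest in the combined group, with 57 of the 266 genes above additivity (21.4%, against 30.7% of all tested genes). The other 209 were highest in nonDEN-L-CD, and the share over all tested genes is again no like reference. Of these 57, 25 were higher with DEN on the western diet (2.59% of all tested genes) and 20 with the western diet after DEN (1.66%). Choosing genes by their mean in DEN-PT-WD favors such calls, so the counts only describe the class. Without the pair, 43 kept a value of at least 1 and 1 stayed called. The glycerol phosphate acyltransferase *Gpat3* (chr5:100845713-100899102) held 263, 229 and 274 in nonDEN-L-CD, 141, 127, 79.4 and 118 in DEN-L-CD, 240, 253, 259 and 215 in nonDEN-L-WD, and 253 to 470 (median 395) in DEN-PT-WD. All 4 DEN-L-CD libraries lay under every other library, and DEN-PT-WD lay mostly above both untreated groups with a small overlap. The test gave a log2 interaction of 1.74 (SE 0.26, edgeR adjusted p = 0.00125) and 1.78 without the pair. DEN on the control diet lowered *Gpat3* by a log2 of -1.13 (SE 0.21, edgeR adjusted p = 9.3e-04), and the western diet after DEN raised it by 1.66 (SE 0.18, edgeR adjusted p = 3.1e-04).

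*Csf2rb*, the common receptor chain for granulocyte-macrophage colony-stimulating factor, held 359, 277 and 339 in nonDEN-L-CD, 184, 212, 179 and 156 in DEN-L-CD, 231, 213, 226 and 180 in nonDEN-L-WD, and 249 to 404 (median 318) in DEN-PT-WD. Both single-exposure groups lay under every nonDEN-L-CD and DEN-PT-WD library, and DEN-PT-WD overlapped nonDEN-L-CD. Its log2 interaction was 1.45 (SE 0.19, edgeR adjusted p = 5.1e-04) and 1.60 (edgeR adjusted p = 0.0109) without the pair, the 1 call kept in this class. *Lyve1*, a hyaluronan receptor of sinusoidal endothelium, held 353, 436 and 626 in nonDEN-L-CD, 401, 398, 246 and 357 in DEN-L-CD, 252, 285, 349 and 269 in nonDEN-L-WD, and 512 to 712 (median 623) in DEN-PT-WD. DEN-PT-WD lay above both single exposures and overlapped nonDEN-L-CD replicate 3. This gave a log2 interaction of 1.53 (SE 0.25, edgeR adjusted p = 0.0018) and 1.11 without the pair. DEN on the western diet raised *Lyve1* by a log2 of 1.10 (SE 0.16, edgeR adjusted p = 0.00128). It was the 1 called member of 15 sinusoidal endothelium markers, 11 of which had positive values (median 0.22, and 0.33 without the pair). The other markers summed to 10728 to 12721 normalized counts in nonDEN-L-CD, 11379 to 12659 in DEN-L-CD, 10819 to 13513 in nonDEN-L-WD and 13341 to 16075 in DEN-PT-WD. The part of endothelium in *Lyve1* was not tested.

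*Cd9*, a tetraspanin of lipid-associated macrophages and other cells, held 621, 743 and 716 in nonDEN-L-CD, 429, 469, 600 and 571 in DEN-L-CD, 334, 491, 349 and 380 in nonDEN-L-WD, and 489 to 1068 (median 772) in DEN-PT-WD. DEN-PT-WD and nonDEN-L-CD overlapped, and nonDEN-L-WD was the lowest group on average. On the log2 scale the interaction was 1.38 (SE 0.26, edgeR adjusted p = 0.00446) and 1.22 without the pair. The endotoxin coreceptor *Cd14* was the other called macrophage marker, at 1.73 (SE 0.40, edgeR adjusted p = 0.012), though its mean was highest in nonDEN-L-CD (216 normalized counts, against 171 in DEN-PT-WD). Of 16 macrophage markers, 13 had positive values and 2 passed (median 0.43, and 0.66 without the pair). *Trem2* and *Gpnmb*, defining genes of lipid-associated macrophages, had values of 0.89 (edgeR adjusted p = 0.345) and 0.74 (edgeR adjusted p = 0.738). The macrophage markers summed to 5825 to 8201 normalized counts in nonDEN-L-CD, 5832 to 10070 in nonDEN-L-WD, 6065 to 9700 in DEN-L-CD and 7627 to 17679 in DEN-PT-WD. The part of macrophages in *Csf2rb*, *Cd9* and *Cd14* was not tested.

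The chemokine *Ccl6* and the interleukin 1 receptor antagonist *Il1rn* were highest in DEN-PT-WD, at 1.56 (SE 0.37, edgeR adjusted p = 0.0135) and 2.08 (SE 0.60, edgeR adjusted p = 0.0337). The basement membrane collagen *Col4a1* gave 1.37 (SE 0.27, edgeR adjusted p = 0.00591), the 1 called member of 30 collagen and stellate cell genes, and 0.74 without the pair. *Ocstamp*, a cell fusion protein of myeloid cells, gave 3.54. The bile duct transcription factor *Sox9* gave 1.62 but was highest in nonDEN-L-CD. It was the 1 called member of 12 bile duct markers, and the others summed to 1288 to 1678 normalized counts in nonDEN-L-CD, 1633 to 2438 in DEN-L-CD, 1760 to 2622 in nonDEN-L-WD and 2645 to 8865 in DEN-PT-WD. Their order differed from that of *Sox9*, and their part in its value was not tested. *Cyp2c40* and *Cyp2c69*, 2 closely related P450 genes, differed between DEN-PT-WD libraries. *Cyp2c40* held 266, 277 and 249 in nonDEN-L-CD, 144, 44.4, 141 and 97.1 in DEN-L-CD, 61.4, 75.1, 35.2 and 80.5 in nonDEN-L-WD, and 79.6 to 2709 (median 402) in DEN-PT-WD. Replicates 2, 3 and 8 of DEN-PT-WD stood far above the other 5. Of these, replicates 4 and 7 (476 and 327) still exceeded every library of the other groups, and the remaining 3 lay within their range. The test gave a log2 interaction of 5.32 (SE 1.39, edgeR adjusted p = 0.0214), with 60.3% of its words in other genes, and *Cyp2c69* gave 6.54. Without these 3 libraries, chosen after seeing the data, the log2 interaction of Cyp2c40 was 3.12 (edgeR adjusted p = 0.0228) and the log2 interaction of Cyp2c69 was 3.17 (edgeR adjusted p = 0.0303). Leaving these 3 libraries out left 181 genes above additivity and 158 below.

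In 23 of the 224 genes below additivity the combined group was the lowest (10.3%, against 27.8% of all tested genes, again no like reference). Of these 23, 14 were lower with the western diet after DEN (0.448% of all tested genes) and 10 with DEN on the western diet (0.408%), calls that the choice by DEN-PT-WD favors. *Gm13773*, a transcript at the *Mup* cluster, held 135, 75.5 and 81.1 in nonDEN-L-CD, 133, 95.7, 88.8 and 116 in DEN-L-CD, 124, 77.8, 74.4 and 202 in nonDEN-L-WD, and 18.7 to 40 (median 23.7) in DEN-PT-WD. All 8 DEN-PT-WD libraries lay under the other 11, which overlapped. Its log2 interaction was -2.32 (SE 0.42, edgeR adjusted p = 0.00342) and -1.84 without the pair. The major urinary proteins (Mup) are pheromone carriers of male mouse liver that depend on pulsatile growth hormone. *Mup21* held 5110, 4800 and 5549 in nonDEN-L-CD, 11190, 7457, 10109 and 9689 in DEN-L-CD, 2638, 4029, 2565 and 5411 in nonDEN-L-WD, and 1558 to 4856 (median 2178) in DEN-PT-WD. DEN-L-CD was the highest group, with no overlap, and DEN-PT-WD overlapped both untreated groups. This gave a log2 interaction of -1.39 (SE 0.44, edgeR adjusted p = 0.0493), near the threshold, and 4 of the 19 fits that leave out 1 library called it.

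Of 16 male-biased liver genes, 13 had negative values, *Mup21* alone passed, and the median was -0.86 (-0.63 without the pair). Within the list the western diet after DEN lowered 8 members (0.448% of all tested genes), DEN on the western diet 6 (0.408%) and DEN on the control diet 1 (1.96%). *Mup7* showed that pattern at means of 649368, 339826, 520727 and 59312 normalized counts in nonDEN-L-CD, nonDEN-L-WD, DEN-L-CD and DEN-PT-WD. Its log2 interaction of -2.20 missed the threshold (edgeR adjusted p = 0.166). *Oat* held 18436, 16406 and 20521 in nonDEN-L-CD, 23417, 24567, 16769 and 19288 in DEN-L-CD, 30102, 24641, 40537 and 34028 in nonDEN-L-WD, and 12558 to 22676 (median 16934) in DEN-PT-WD. The highest libraries were those of nonDEN-L-WD, without overlap, and DEN-PT-WD overlapped both control diet groups. On the log2 scale the interaction was -1.12, and -1.12 without the pair. *Tlcd2*, a membrane lipid regulator, gave -1.07 and -1.12, and the pseudogene *Mup-ps12* gave -2.43, with 76.4% of its words in other genes. *Gm13773*, *Tlcd2*, *Mup-ps12*, *Oat*, *Hspa1b* and *Gm10222*, like *Gpat3*, *Csf2rb*, *Lyve1*, *Cd9*, *Col4a1* and *Ocstamp* above additivity, were added by the same rule of smallest p.

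**Figure D4:**
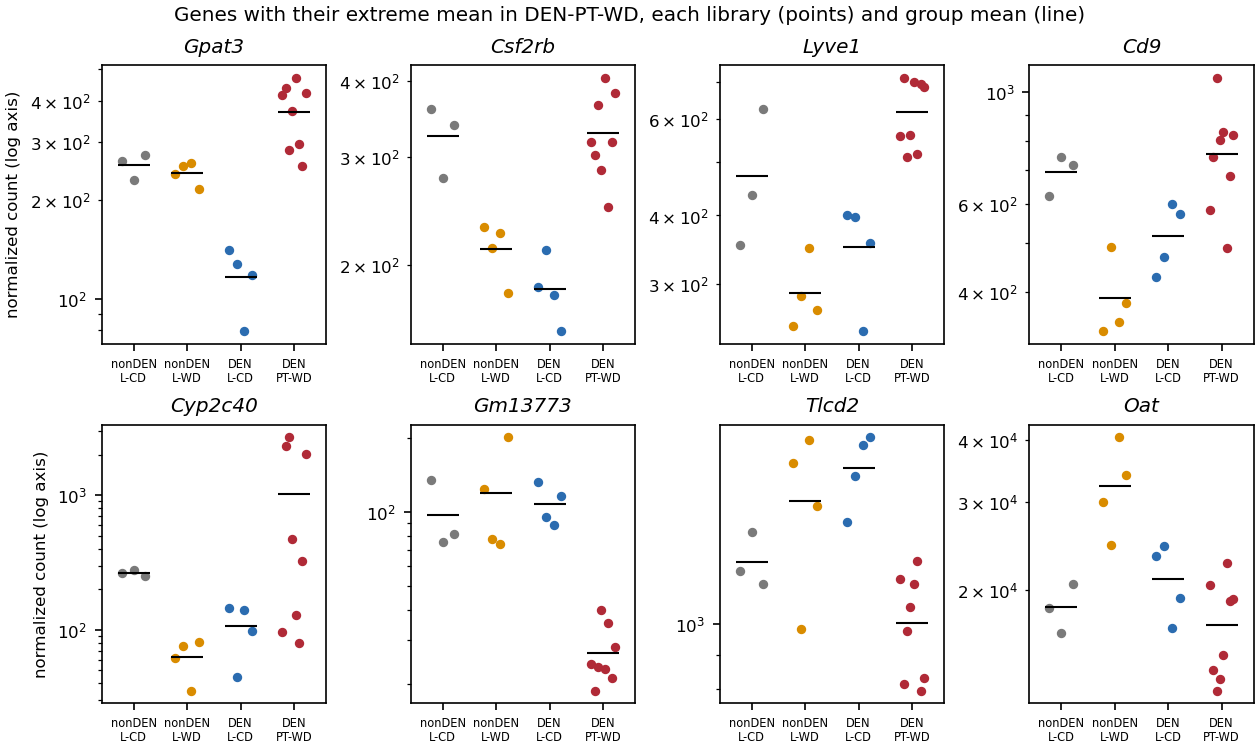
Normalized counts by library (log axis) of 8 genes with the highest or lowest mean in DEN-PT-WD, each point 1 library and each line the group mean. *Csf2rb* and *Lyve1* are higher in every DEN-PT-WD library than in the single-exposure groups, and *Gpat3* is lowest in DEN-L-CD. *Cyp2c40* stands far above the rest in 3 of 8 DEN-PT-WD libraries, and replicates 4 and 7 (476 and 327) also exceed every library of the other groups. *Gm13773* alone is low in DEN-PT-WD with no overlap.

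Many genes of fetal liver and tumors were higher with DEN. Of 15 measured oncofetal and imprinted genes, 7 were higher with DEN on the control diet (3.1% of all tested genes were) and 14 with DEN on the western diet (2.59%). These comparisons share no sample, and the second sets tissue beside a tumor against liver of untreated mice. The median log2 DEN effects of the 15 genes were 2.24 and 3.13. The interaction had a median of 1.23 (1.35 with genes whose group was at the floor set to their bound, and 1.11 without the pair), and 1 member passed. Alpha-fetoprotein (*Afp*) had means of 13.7, 17.3, 180 and 579 normalized counts in nonDEN-L-CD, nonDEN-L-WD, DEN-L-CD and DEN-PT-WD. The test gave a log2 interaction of 1.36 (SE 1.39, edgeR adjusted p = 0.565). The glypican *Gpc3* gave 1.39 (SE 1.25) and *H19* 0.51 (SE 1.09). The called member was the imprinted *Peg3*, which held 271, 370 and 243 in nonDEN-L-CD, 95.2, 140, 141 and 145 in DEN-L-CD, 173, 210, 153 and 156 in nonDEN-L-WD, and 145 to 211 (median 182) in DEN-PT-WD. All nonDEN-L-CD libraries exceeded the rest, and DEN-L-CD was the lowest group, reaching the lowest DEN-PT-WD library. *Peg3* had a log2 interaction of 1.23 (SE 0.22, edgeR adjusted p = 0.00333).

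Medians were compared over 31 gene lists and 12 marker lists. Acute phase, metallothionein and stress response lists had the highest medians among the gene lists beside the oncofetal list, and male-biased, pericentral, lipid synthesis and bile acid lists the lowest. All 31 nuclear respiratory chain subunits had negative values, from -0.47 to -0.07, with a median of -0.24 and no member called. Their lowest adjusted p was 0.052 (edgeR), for *Atp5a1*. On the log2(TPM + 1) scale, relative to the median of all genes, 40 of the 43 lists kept their sign. The exceptions were the urea cycle and hepatocyte identity lists, at 0.01 and 0.03 there and -0.02 each in the counts, and the pancreas markers, at -1.20 and 0.27.

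**Figure D5:**
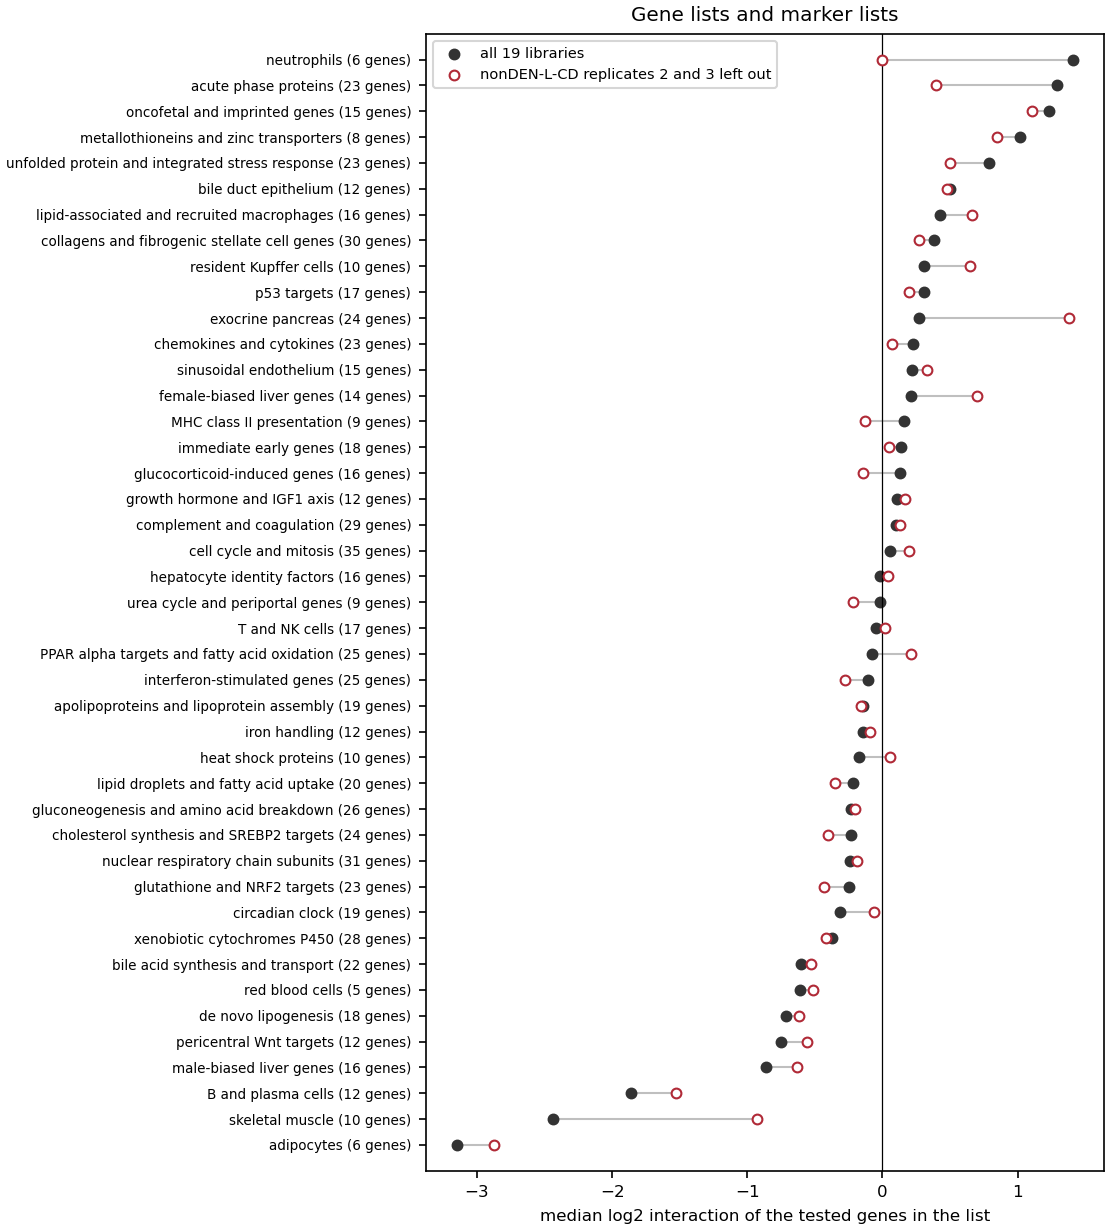
Median log2 interaction of the 43 lists with all 19 libraries and without nonDEN-L-CD replicates 2 and 3, with 1 row per list and 0 marking additivity. The acute phase median moves from 1.29 to 0.40, and the bile acid, lipid synthesis and pericentral medians stay at -0.53 or lower in both fits.

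Some named transcripts cannot be read as they stand. *Gm10222* (-10.58) and *Gm7334* (9.93) had the most extreme values below and above additivity. All sequence words of 50 bases in *Gm10222* occur in *mt-Nd4l*, and all in *Gm7334* in *Btg3*, so these counts are uncertain. *Gm10222* held 0, 3.55, 234 and 7113 normalized counts in the 4 DEN-L-CD libraries. Its log2 interaction ranged from -11.08 to -6.09 over the fits that leave out 1 library. *Gm7334* held 0 counts in the 4 DEN-L-CD libraries and *Lep* 0 in the 3 nonDEN-L-CD libraries, and their fitted values depend on the default prior count of the fit. *Tmc5* (6.87) and the adenylyl cyclase *Adcy1* (5.58) were highest in nonDEN-L-CD, with at most 318 normalized counts in any library. The sulfiredoxin *Srxn1*, an NRF2 target, had a log2 interaction of 1.72 with all libraries and of -0.43 without the pair, the 1 reversal among the named genes. *Mt2* overlaps *Gm45774*, *Junb* overlaps *Prdx2* and *Gm13773* overlaps *Mup-ps6*, so these reads cannot be told apart without strand. More than 20% of the words of 13 named genes are shared with other genes, *Saa1* (31.5%), *Saa2* (30.0%), *Cyp2a5* (37%), *Cyp3a25* (26.8%) and *Hsd3b2* (25.1%) among them.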

How the data were processed

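Liver RNA was poly(A)-selected and sequenced single-end. Per the labels and the study's methods, the authors checked reads with FastQC, aligned them with STAR and quantified genes of GRCm38 with RSEM, and deposited expected counts and TPM (transcript abundance scaled by length and library total) per sample. The strand setting, the gene annotation used and the aligner and quantifier versions are not given in the sources used here. The deposited expected counts (48795 genes, 48349 matched to a symbol, 6.3% of values not whole) were rounded to whole numbers. Libraries held 23225238 to 38074411 expected counts, and no libraries were identical.

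Genes were filtered with filterByExpr (minimum count 10) and fitted over 4 groups and 19 libraries with edgeR 4.0.16 (R 4.3.3) by TMM normalization and the quasi-likelihood test, with Benjamini-Hochberg adjustment over 15180 genes. Called genes had an adjusted p of at most 0.05 and an absolute log2 interaction of at least 1. Normalized counts are counts scaled to TMM library sizes. Additivity was on the log2 scale. Fitted log2 values used a prior count of 2, and a group with at most 3 counts in total was treated as at the floor. Calls were tested on simulated data. Alternatives used DESeq2 1.42.0, apeglm 1.24.0, and limma 3.58.1 with quality weights or on the deposited TPM as log2(TPM + 1). Tables and plots used Python 3.11.15, pandas 2.3.3, numpy 2.4.6 and matplotlib 3.10.9.

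Named genes were the 10 largest called values in each direction (highest group mean of at least 100 normalized counts and 1 sign in the 19 fits that leave out 1 library) and up to 6 called members per list by smallest p. To these were added, after values were seen, the 6 of smallest p in each of the 4 classes by extreme group. The lists and the comparison itself were chosen with earlier results of these data known. Shared sequence was counted in words of 50 bases. Coordinates are from GENCODE (GRCm38) and promoters from RefSeq (GRCm38.p6).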

Additional observations from a re-analysis of the deposited data

Results flagged for a closer look

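The 85 named genes were chosen among those that passed the edgeR quasi-likelihood test of the interaction, so that passing it is no further result. Without nonDEN-L-CD replicates 2 and 3 the value of *Srxn1* reversed to -0.43. The values listed here are log2 interactions with all 19 libraries. Above additivity they were 9.93 for *Gm7334*, 8.49 for *Mt2*, 6.87 for *Tmc5*, 6.54 for *Cyp2c69*, 5.98 for *Mt1*, 5.58 for *Adcy1*, 5.4 for *Saa2*, 5.32 for *Cyp2c40* and 4.89 for *Lcn2*. Lower positive values were 4.88 for *Saa1*, 3.80 for *Cxcl1*, 3.54 for *Ocstamp*, 3.04 for *Retnlg*, 3.03 for *Cdkn1a*, 2.99 for *Asns*, 2.48 for *Socs3*, 2.44 for *Tacc2* and 2.40 for *Fkbp5*. Next came 2.37 for *Hspb1*, 2.35 for *Arntl*, 2.13 for *Creld2*, 2.08 for *Il1rn*, 2.07 for *Steap4*, 1.99 for *Nedd4l*, 1.87 for *Icam1*, 1.74 for *Gpat3* and 1.73 for *Cd14*. Then followed 1.72 for *Srxn1*, 1.69 for *Junb*, 1.62 for *Sox9*, 1.59 for *Btg2*, 1.56 for *Ccl6*, 1.55 for *Lbp*, 1.53 for *Lyve1*, 1.45 for *Csf2rb* and 1.42 for *Hp*. Smaller still were 1.40 for *Nfil3*, 1.38 for *Cd9*, 1.37 for *Col4a1*, 1.35 for *Sept11*, 1.29 for *Sdf2l1*, 1.29 for *Psph*, 1.23 for *Peg3*, 1.18 for *Myd88* and 1.16 for *Cyp39a1*. The remaining positive values were 1.16 for *Prox1* and 1.14 for *Hsp90aa1*.

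Below additivity the log2 interactions were -10.58 for *Gm10222*, -8.30 for *Lep*, -6.36 for *B430212C06Rik*, -4.85 for *Cidea*, -4.68 for *Themis*, -4.10 for *Lrtm1*, -3.61 for *Esrrg*, -3.40 for *Cyp7a1* and -3.14 for *Osbpl3*. Smaller negative values were -3.13 for *Cfd*, -3.02 for *Pnldc1*, -2.90 for *Mogat1*, -2.43 for *Mup-ps12*, -2.34 for *Hsd3b2*, -2.32 for *Gm13773*, -1.95 for *Hspa1b*, -1.80 for *Srebf1* and -1.79 for *Apol7a*. After these came -1.78 for *Cyp2a5*, -1.67 for *Abcd2*, -1.66 for *Syt1*, -1.65 for *Cd2*, -1.59 for *Cyp2c39*, -1.54 for *Lgr5*, -1.40 for *Cyp1a1*, -1.39 for *Mup21* and -1.34 for *Nr3c2*. Nearer to 0 were -1.28 for *Gm20319*, -1.27 for *Akr1d1*, -1.24 for *Fitm1*, -1.20 for *Ccne2*, -1.15 for *Cyp3a25*, -1.12 for *Oat*, -1.07 for *Tlcd2*, -1.07 for *Aldh3a2* and -1.03 for *Fads2*. The remaining negative values were -1.03 for *Slc10a1* and -1.0 for *Slco1b2*.

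In 11 of 255 groups of 4 to 8 libraries, 1 library lay far from the rest of its group by Dixon's test, where chance gives about 1 in 20. The normalized counts of those libraries were as follows. DEN-L-CD replicate 1 held 891 of *Junb* and 95.2 of *Peg3*. DEN-L-CD replicate 2 held 10.5 of *Cyp2c69* and 314 of *Sdf2l1*. DEN-L-CD replicate 3 held 2.37 of *B430212C06Rik* and 232 of *Lgr5*, and replicate 4 held 2.37 of *Retnlg*. DEN-PT-WD replicate 7 held 3.23 of *B430212C06Rik* and 16.2 of *Cidea*, replicate 6 of that group 1555 of *Gm20319*, and nonDEN-L-WD replicate 4 held 2947 of *Srebf1*.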

How the results depend on the processing

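The counts of 266 genes above and 224 below additivity stayed within 1.5 times under DESeq2's Wald test (315 and 278), shrunken fold changes (197 and 173), DESeq2 size factors (266 and 220), no filter on low counts (225 and 181) and a fit that also held the tumor group (245 and 185). Without the minimum fold they were 815 and 779. Quality weights gave 379 and 393, and log2(TPM + 1) gave 205 and 54; the cause was not tested. Leaving out 1 library gave 157 to 377 above and 120 to 304 below, highest without nonDEN-L-CD replicate 1 (377 and 304). The lowest counts came without nonDEN-L-CD replicate 2 (157 and 120) or replicate 3 (171 and 129). Without both, an alternative chosen after seeing the data, 10 and 5 remained, with 1 library left in that arm, and the log2 interaction of *Srxn1* turned to -0.43; the cause was not tested. On the linear scale *Abcd2* exceeded additivity by 72.5 normalized counts. Leaving out the 3 DEN-PT-WD libraries high in *Cyp2c40* gave 181 and 158, and leaving out the 3 libraries highest in pancreas transcripts gave 228 and 169, both also chosen after seeing the data. With the replicate number as a block, 225 genes lay above and 235 below, and 69 of the 85 named genes stayed called. Deviations of same-numbered libraries correlated between -0.238 and 0.404 over 21 pairs (8 over 0.1). No reference for these correlations was computed, so whether same-numbered libraries share more than a number was not tested. Of the 85 named genes, 82 stayed called by the Wald test, 71 with the tumor group in the fit, 75 with quality weights and 51 in all 19 fits without 1 library. The median changed sign in at least 1 of those fits in 11 of 43 lists. At this depth and group size, 84 of 100 simulated log2 interactions of 1.5 and 98 of 100 of 3 were recovered among 14937 genes, so that smaller departures can be missed. The changes were planted in DEN-PT-WD alone, so the recovery of departures that lie in nonDEN-L-CD was not tested.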

Other observations

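No member was called among the lists of gluconeogenesis (26 genes, median log2 interaction -0.23), interferon-stimulated genes (25, -0.11), cholesterol synthesis (24, -0.23), complement and coagulation (29, 0.10), apolipoproteins (19, -0.14), urea cycle (9, -0.02) and iron handling (12, -0.14). Resident Kupffer cell markers had a median of 0.31 over 10 genes and 0 calls, and MHC class II genes one of 0.16 over 9 genes and 0 calls. Skeletal muscle markers had 10 of 10 negative values, with a median of -2.44 that became -0.93 without nonDEN-L-CD replicates 2 and 3, and red blood cell markers 5 of 5, with a median of -0.61.

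The median of the 14 female-biased genes was 0.21, and 0.77 with genes whose group was at the floor set to their bound. The exocrine pancreas markers had a median of 0.27, and of 1.38 without nonDEN-L-CD replicates 2 and 3.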
